A study of Mus musculus with 16 samples.

Results

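MAP kinase signalling switches on genes whose products turn it off again, and the 9 genes described here belong to that negative feedback. They are Dusp1, Dusp4, Dusp5, Dusp6, Dusp10 and Dusp14, which encode dual-specificity phosphatases, and Spry1, Spry2 and Spry4, which encode Sprouty proteins. They were chosen by name and matched by symbol to the Ensembl identifiers of the count table, which holds 56980 genes. All 9 passed the filter on low counts, which left 17972 genes for testing.

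The RNA came from the kidney cortex of male C57Bl/6J mice that carried floxed alleles of Degs1, the gene of the enzyme that makes ceramide from dihydroceramide. The 16 libraries formed 4 groups of 4, sham and IRI in each of the genotypes fl/fl and iGKO. The fl/fl mice were Degs1fl/fl littermate controls. The iGKO mice (Degs1iGKO, from a cross of Degs1fl/fl with Rosa26-CreERT2 mice) had a global deletion that tamoxifen induces, so no cell type was singled out for the loss of Degs1. Mice of both genotypes received 3 mg tamoxifen on 5 days at 9 weeks of age and were operated at 12 weeks. IRI was bilateral ischaemia-reperfusion injury, with a clamp on each renal pedicle for 28 min and tissue taken 24 h after the operation. Sham mice had the same operation without clamping, and all groups shared ketamine and xylazine anaesthesia and buprenorphine and bupivacaine analgesia. A library is named here by its group and replicate number, as in fl/fl IRI 1. The labels do not say more about the replicates than that they are separate samples, so p-values measure the spread between these samples only.

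Receptor tyrosine kinases and stress signals start a chain of kinases that ends in the MAP kinases ERK, JNK and p38. Dual-specificity phosphatases remove the activating phosphates from both the threonine and the tyrosine of a MAP kinase, and Sprouty proteins act further upstream, between the receptor and ERK. Many of these inhibitors are themselves transcribed when the pathway is active, and in the kidney growth factor receptors and stress kinases of the tubule are well known to respond to ischaemia.

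Levels are CPM, counts scaled to the size of each library with TMM factors. Total counts were 12704273 to 18816343 per library. Degs1 stood at 84.0 to 113 CPM in fl/fl sham and 88.8 to 133 CPM in fl/fl IRI, against 40.2 to 71.7 CPM in iGKO sham and 44.7 to 59.8 CPM in iGKO IRI, so every library matched its genotype label in direction. The log2 difference in Degs1 was -0.82 after sham, which was not called, and -1.05 ± 0.18 after IRI (adjusted p = 0.0325). That call was lost in 6 of 16 fits with 1 library left out (adjusted p up to 0.133) and with only the 2 injured groups fitted (adjusted p = 0.317). The 6 proximal tubule markers summed to 14554 to 17369 CPM in the sham libraries. These sums cannot tell cortex from whole kidney, so the cortex label was not tested. Some libraries stood apart from their groups. In fl/fl IRI 1 the 5 markers of injured tubule summed to 205 CPM, against 1707 to 2705 CPM in fl/fl IRI 2, 3 and 4. In iGKO sham 2 these markers summed to 202 CPM, against 47.0 to 64.3 CPM in the other iGKO sham libraries. In iGKO sham 4 mitochondrially encoded genes took 0.443% of counts, against at least 2.05% in every other library. The 6 fibroblast and mural markers summed to 6486 CPM in iGKO IRI 2, against 943 to 1872 CPM in the other iGKO IRI libraries and 540 to 1292 CPM in fl/fl IRI. In iGKO IRI 3 the 2 fat markers summed to 214 CPM and the 3 urothelium markers to 59.4 CPM, the highest of all libraries. The part of these tissues in the results was not tested. Results that rest on fl/fl IRI 1 are given with and without it.

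The promoters of Dusp1 and Dusp5 are shown because motifs of stimulus-responsive transcription lie in them. With all libraries these members also had the largest differences between the IRI groups. The difference of Dusp1 was not called, and without fl/fl IRI 4 it was -0.66, smaller than the -1.11 of Dusp14 in that fit. Both are the 250 bases before the transcription start, read on the gene's strand from the RefSeq table of build GRCm38.p6, at chr17:26508473-26508722 (minus strand) for Dusp1 and chr19:53528895-53529144 (plus strand) for Dusp5. Capitals mark matches to a cAMP response element (CRE) or its 6-base core in both, and to the CArG box, the site of serum response factor, in Dusp5.
Dusp1: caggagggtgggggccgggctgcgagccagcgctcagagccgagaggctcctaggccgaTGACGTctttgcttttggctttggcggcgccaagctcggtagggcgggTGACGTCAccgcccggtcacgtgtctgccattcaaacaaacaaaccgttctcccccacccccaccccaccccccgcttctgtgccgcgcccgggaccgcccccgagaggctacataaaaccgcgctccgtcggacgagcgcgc
Dusp5: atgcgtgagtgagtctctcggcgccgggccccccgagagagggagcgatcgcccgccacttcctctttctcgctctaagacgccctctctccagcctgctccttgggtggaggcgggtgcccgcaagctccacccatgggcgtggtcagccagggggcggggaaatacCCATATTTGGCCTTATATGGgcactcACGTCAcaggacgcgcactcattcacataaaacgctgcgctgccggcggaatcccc
The search covered both strands of the 300 bases around the start that the table holds for each of 32851 promoters, and 7 of the 9 members had an entry. Dusp4 and Spry4 were not matched. The CRE, TGACGTCA, was found in Dusp1 only among the 7, from 143 to 136 bases before the start, and in 1.79% of all promoters. Its core, TGACGT, which every CRE also holds, was found in Dusp1 and Dusp5 and in 7.51% of all promoters. CArG boxes lay at 82 to 73 and 72 to 63 bases before the Dusp5 start, side by side, and 1.63% of all promoters held at least 1. The ETS core CCGGAA was found in Dusp14 and Spry2 and in 14.9% of all promoters. The AP-1 site TGANTCA (7.81% of all promoters) and the EGR site GCGGGGGCG (2.91%) were not found in the 7 windows. These matches describe the letters of the windows, not binding, and their part in the RNA levels was not tested.

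Per kilobase of exon, the members differed in level in uninjured cortex. In fl/fl sham the mean was 13.5 CPM per kb for Dusp6, 12.0 for Dusp1, 9.80 for Spry1, 9.03 for Dusp4 and 7.16 for Spry2. The mean CPM per kb was 3.89 for Dusp14, 3.63 for Spry4, 0.99984 for Dusp5 and 0.601 for Dusp10. Dusp5 and Dusp10 were thus the lowest of the set before injury. In 8 of the 9 genes the highest group mean was that of fl/fl IRI, and Spry1, with its highest mean in iGKO sham, was the exception.

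Dusp5 and Spry4 rose after IRI in fl/fl kidneys and no member passed the test in iGKO kidneys, where no gene at all passed. The difference between the fl/fl and iGKO responses passed for no member (adjusted p = 0.262 for Dusp5 and 0.387 for Spry4). It passed for no other gene either, so a dependence of the response on genotype was not shown. Within the injured kidneys, Dusp5 was lower in iGKO than in fl/fl. The other 7 genes did not pass this edgeR test of all 16 libraries in any comparison. Adjusted p-values are from edgeR's quasi-likelihood test with Benjamini-Hochberg adjustment over all genes tested, and a gene is called when its adjusted p is under 0.05. Of all genes tested, 8.46% were called higher after IRI in fl/fl, against 2 of the 9 members, and 7.01% were called lower, against none of the members.

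**Figure D1:**
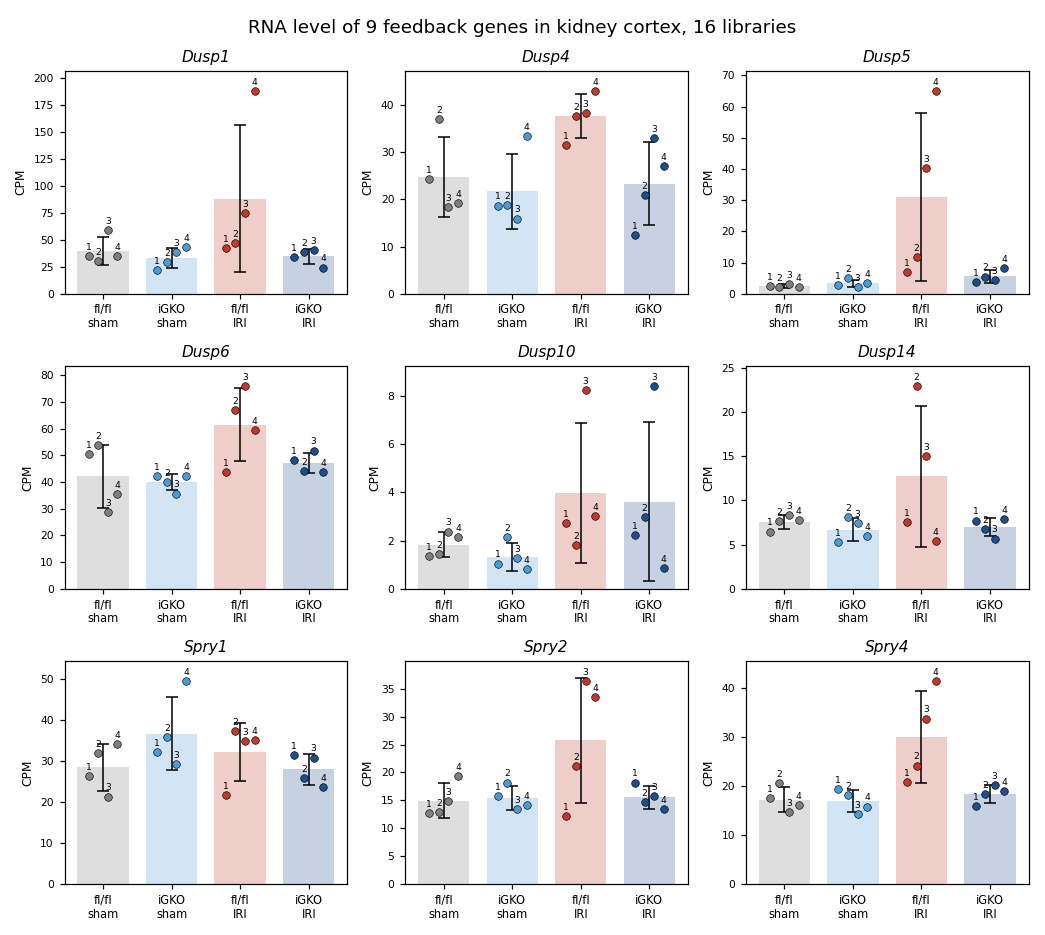
CPM of each of the 9 genes in the 16 libraries, with groups on the horizontal axis. Points are libraries marked by replicate number, bars are group means and whiskers are 1 SD over 4 libraries. The fl/fl IRI libraries spread most for Dusp5 (6.91 to 65.0 CPM) and Dusp1 (42.2 to 188 CPM).

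Dusp5 (ENSMUSG00000034765) encodes a nuclear phosphatase specific to ERK. In replicates 1 to 4, an order kept for the other genes too, Dusp5 stood at 2.37, 2.14, 3.21 and 2.17 CPM in the fl/fl sham group and at 2.85, 4.95, 2.07 and 3.44 CPM in the iGKO sham group. After IRI Dusp5 stood at 6.91, 11.8, 40.2 and 65.0 CPM in the fl/fl replicates and at 3.86, 5.49, 4.42 and 8.31 CPM in the iGKO replicates. Every fl/fl IRI library lay above every sham library of either genotype, whereas the IRI groups overlapped, since iGKO IRI 4 lay above fl/fl IRI 1. The group means (± SD, n = 4) after sham were 2.47 ± 0.505 CPM for fl/fl and 3.33 ± 1.22 CPM for iGKO, and after IRI 31.0 ± 27.0 CPM for fl/fl and 5.52 ± 1.98 CPM for iGKO. In fl/fl the gene rose 12.5-fold, a log2 fold change of 3.64 ± 0.57 (SE; adjusted p = 0.00121). In iGKO the log2 fold change was 0.73 ± 0.53, with a 95% interval of -0.39 to 1.85 (adjusted p = 0.945). Between the injured groups Dusp5 was lower in iGKO, with a log2 difference of -2.49 ± 0.53 (adjusted p = 0.0426). The difference between the responses was -2.91 ± 0.75 on the log2 scale, which did not pass (adjusted p = 0.262).

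The fl/fl response of Dusp5 passed with each of the 16 libraries left out in turn, and its log2 size was 2.99 without fl/fl IRI 4. The difference between the injured groups passed in 3 of those 16 fits, those without replicate 1 or 2 of fl/fl IRI or replicate 4 of iGKO sham, and in the other 13 the adjusted p was 0.0539 to 0.156. It was -2.82 without fl/fl IRI 1 (adjusted p = 0.000882) and -1.83 without fl/fl IRI 4 (adjusted p = 0.134). The difference between the responses passed in 1 of the 16 fits, the one without fl/fl IRI 1, at -3.25 (adjusted p = 0.00913). Without fl/fl IRI 4 it was -2.26 (adjusted p = 0.382).

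Dusp1 (ENSMUSG00000024190), an immediate early gene, encodes a nuclear phosphatase that acts on p38 and JNK as well as ERK. Dusp1 stood at 34.8, 30.6, 59.3 and 34.8 CPM in the fl/fl sham replicates and at 22.0, 29.5, 38.3 and 43.6 CPM in the iGKO sham replicates. After IRI Dusp1 stood at 42.2, 47.3, 74.9 and 188 CPM in the fl/fl replicates and at 34.4, 38.7, 40.9 and 24.3 CPM in the iGKO replicates. Every iGKO IRI library lay below every fl/fl IRI library, and the 2 fl/fl groups overlapped through fl/fl sham 3. The log2 fold change after IRI was 1.14 ± 0.39 in fl/fl (adjusted p = 0.0570) and 0.05 ± 0.39 in iGKO (adjusted p = 0.998). The difference between the injured groups was -1.35 ± 0.39 (adjusted p = 0.0963). These sizes rested much on 1 library: without fl/fl IRI 4 they were 0.46 in fl/fl (adjusted p = 0.326) and -0.66 between the injured groups (adjusted p = 0.350). Both passed without fl/fl IRI 1, with adjusted p of 0.0141 and 0.0122, and the fl/fl response also passed without fl/fl IRI 2 (adjusted p = 0.0361) and without the filter on low counts (adjusted p = 0.0396).

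Dusp4 (ENSMUSG00000031530) encodes another nuclear phosphatase that ERK signalling induces. Dusp4 stood at 24.3, 37.0, 18.4 and 19.3 CPM in the fl/fl sham replicates and at 18.7, 18.8, 15.9 and 33.4 CPM in the iGKO sham replicates. After IRI Dusp4 stood at 31.6, 37.7, 38.3 and 43.0 CPM in the fl/fl replicates and at 12.4, 21.0, 32.9 and 27.0 CPM in the iGKO replicates. The fl/fl IRI group had the smallest relative spread, and fl/fl sham 2, iGKO sham 4 and iGKO IRI 3 reached into its range. The log2 fold change was 0.60 ± 0.29 after IRI in fl/fl (adjusted p = 0.171) and -0.69 ± 0.29 between the injured groups (adjusted p = 0.215).

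Dusp6 (ENSMUSG00000019960) encodes the cytoplasmic phosphatase of ERK and is a widely used readout of ERK activity. Dusp6 stood at 50.4, 53.7, 28.8 and 35.6 CPM in the fl/fl sham replicates and at 42.3, 39.8, 35.6 and 42.1 CPM in the iGKO sham replicates. After IRI Dusp6 stood at 43.8, 66.8, 75.8 and 59.5 CPM in the fl/fl replicates and at 48.3, 44.2, 51.7 and 43.7 CPM in the iGKO replicates. The fl/fl groups overlapped, while all 4 iGKO IRI libraries lay above all 4 iGKO sham libraries. That iGKO difference was small, 0.23 ± 0.19 on the log2 scale, and did not pass (adjusted p = 0.967). In fl/fl the log2 fold change was 0.55 ± 0.19 (adjusted p = 0.0641), and it passed without fl/fl IRI 1 (adjusted p = 0.0144) and without fl/fl sham 2 (adjusted p = 0.0387). Without fl/fl sham 3 the fl/fl value was 0.40 (adjusted p = 0.190).

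Dusp10 (ENSMUSG00000039384), whose product acts on JNK and p38 rather than ERK, was the member nearest to the detection limit. Dusp10 stood at 1.34, 1.43, 2.38 and 2.17 CPM in the fl/fl sham replicates and at 1.05, 2.17, 1.29 and 0.809 CPM in the iGKO sham replicates. After IRI Dusp10 stood at 2.73, 1.83, 8.24 and 3.03 CPM in the fl/fl replicates and at 2.23, 2.96, 8.40 and 0.878 CPM in the iGKO replicates. A single library in each injured group, replicate 3 in both, stood far above the rest. Dusp10 had the largest log2 fold change of the members in iGKO, 1.44 ± 0.59 (adjusted p = 0.703), beside 1.11 ± 0.58 in fl/fl (adjusted p = 0.204). Both sizes rested on replicate 3: without iGKO IRI 3 the iGKO value was 0.60, below the 0.82 of Dusp5 in that fit, and without fl/fl IRI 3 the fl/fl value was 0.47.

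Dusp14 (ENSMUSG00000018648) encodes a small atypical phosphatase without the kinase-binding domain of the typical ones. Dusp14 stood at 6.48, 7.65, 8.39 and 7.75 CPM in the fl/fl sham replicates and at 5.26, 8.11, 7.49 and 6.00 CPM in the iGKO sham replicates. After IRI Dusp14 stood at 7.52, 22.9, 15.1 and 5.43 CPM in the fl/fl replicates and at 7.72, 6.72, 5.69 and 7.91 CPM in the iGKO replicates. Only fl/fl IRI 2 and 3 lay above the sham range, and fl/fl IRI 4, the highest library for Dusp1 and Dusp5, was the lowest of its group here. The log2 difference between the injured groups was -0.86 ± 0.33 (adjusted p = 0.186), and it passed without fl/fl IRI 1 (adjusted p = 0.0481). The fl/fl response, 0.75 ± 0.33 (adjusted p = 0.138), passed without fl/fl IRI 4 (adjusted p = 0.0362). Without fl/fl IRI 2 the fl/fl response of Dusp14 was 0.30 (adjusted p = 0.520) and the difference between the injured groups -0.41 (adjusted p = 0.460).

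Among the Sprouty genes, which dampen signalling from growth factor receptors to ERK, Spry4 (ENSMUSG00000024427) gave the clearest fl/fl response. Spry4 stood at 17.5, 20.6, 14.7 and 16.2 CPM in the fl/fl sham replicates and at 19.4, 18.1, 14.3 and 15.8 CPM in the iGKO sham replicates. After IRI Spry4 stood at 20.8, 24.2, 33.8 and 41.4 CPM in the fl/fl replicates and at 16.0, 18.4, 20.2 and 19.1 CPM in the iGKO replicates. All fl/fl IRI libraries lay above those of the other 3 groups, though fl/fl IRI 1 only narrowly. Spry4 rose 1.74-fold in fl/fl, a log2 fold change of 0.80 ± 0.20 (adjusted p = 0.0139), and in iGKO the value was 0.12 ± 0.20 (adjusted p = 0.992). The difference between these responses, -0.68 on the log2 scale, did not pass (adjusted p = 0.387). The fl/fl call held in 15 of the 16 fits that left out a library and not without replicate 3 of fl/fl sham (adjusted p = 0.0522), nor with only the 2 fl/fl groups fitted (adjusted p = 0.0523). The difference between the injured groups was -0.71 ± 0.20 (adjusted p = 0.0854), and without fl/fl IRI 1 it passed, at -0.85 (adjusted p = 0.00796). Without fl/fl IRI 4 that difference was -0.51 (adjusted p = 0.259).

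Spry2 (ENSMUSG00000022114) encodes a Sprouty protein that growth factors induce in many tissues. Spry2 stood at 12.6, 13.0, 14.8 and 19.4 CPM in the fl/fl sham replicates and at 15.8, 18.2, 13.5 and 14.2 CPM in the iGKO sham replicates. After IRI Spry2 stood at 12.2, 21.1, 36.3 and 33.4 CPM in the fl/fl replicates and at 18.2, 14.7, 15.7 and 13.4 CPM in the iGKO replicates. In fl/fl IRI 2, 3 and 4 the gene lay above all sham libraries, and fl/fl IRI 1 was the lowest of all 16. The log2 fold change in fl/fl was 0.79 ± 0.26 (adjusted p = 0.0530), and the difference between the injured groups was -0.73 ± 0.26 (adjusted p = 0.156). Both passed without that library, with adjusted p of 0.00222 and 0.00676, and the fl/fl response also passed without iGKO sham 4 (adjusted p = 0.0485). Without fl/fl IRI 3 both were smaller. The fl/fl response was then 0.58 (adjusted p = 0.185) and the difference between the injured groups -0.52 (adjusted p = 0.377).

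Spry1 (ENSMUSG00000037211) was the member that varied least over the groups, with a 1.31-fold ratio between its highest and its lowest group mean. The means (± SD, n = 4) after sham were 28.5 ± 5.81 CPM for fl/fl and 36.7 ± 8.94 CPM for iGKO, and after IRI 32.3 ± 7.11 CPM for fl/fl and 28.0 ± 3.80 CPM for iGKO. Spry1 stood at 26.3, 32.0, 21.4 and 34.3 CPM in the fl/fl sham replicates and at 32.3, 35.8, 29.3 and 49.5 CPM in the iGKO sham replicates. After IRI Spry1 stood at 21.7, 37.3, 34.9 and 35.1 CPM in the fl/fl replicates and at 31.5, 25.9, 30.9 and 23.7 CPM in the iGKO replicates. All pairs of groups overlapped. The log2 fold change was 0.18 ± 0.21 in fl/fl (adjusted p = 0.595) and -0.39 ± 0.21 in iGKO (adjusted p = 0.832).

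**Figure D2:**
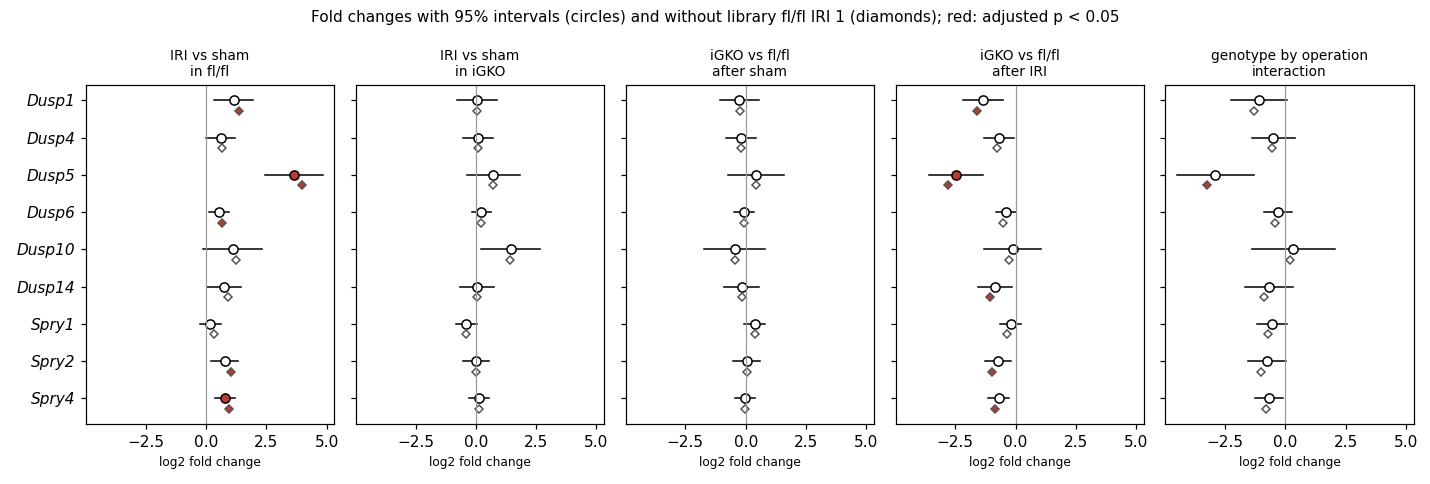
Log2 fold changes of the 9 genes in the 5 comparisons, with 95% intervals (circles and lines) and the estimates without fl/fl IRI 1 (diamonds); red marks an adjusted p under 0.05. With all libraries red marks Dusp5 and Spry4 for the fl/fl response and Dusp5 between the injured groups; without fl/fl IRI 1 the counts are 5, 5 and, for the interaction, 1.

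Across the set, the response to IRI had a positive sign in fl/fl for all 9 members, with a median log2 fold change of 0.79 beside 0.01 over all genes tested. All libraries of fl/fl IRI lay above all libraries of fl/fl sham for Dusp5 and Spry4, 2 of the 9, and for 9.65% of genes tested. DESeq2 called 5 members higher in fl/fl (Dusp1, Dusp5, Dusp6, Spry2 and Spry4), where it called 11.1% of genes. Without fl/fl IRI 1, edgeR called these same 5 genes and 11.9% of all genes higher. The library fl/fl IRI 1 had the lowest value of its group for 7 of the 9 members and the highest for none.

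In iGKO the median log2 fold change of the members after IRI was 0.11, beside -0.02 over all genes. None of the 9 was called by edgeR, which called 0% of all genes (1145 genes had an unadjusted p under 0.05), and DESeq2 called 43 genes, none of them a member. Dusp6 was the 1 member whose iGKO IRI libraries all lay above the iGKO sham libraries, as 2.24% of all genes did. The 95% intervals of the iGKO response reached 0.87 for Dusp1, 1.85 for Dusp5, 0.56 for Spry2 and 0.54 for Spry4, so smaller rises than those bounds were not excluded by the intervals.

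After sham operation no difference between the genotypes passed in these genes. The log2 differences ran from -0.45 for Dusp10 to 0.43 for Dusp5, with a median of -0.08 beside 0.01 over all genes. The groups overlapped for all 9 members, as for nearly all genes. Only 1.05% of genes had every iGKO library above every fl/fl library, and 0.874% had every one below. No member was called and edgeR called 0% of all genes (210 genes had an unadjusted p under 0.05), as did DESeq2, with 0 genes.

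After IRI all 9 members had a lower estimate in iGKO than in fl/fl, with a median log2 difference of -0.71 beside -0.01 over all genes. Dusp5 alone was called lower, 1 of 9, where 0.673% of all genes were called lower and 0.178% higher. The iGKO IRI libraries all lay below the fl/fl IRI libraries for Dusp1 and Spry4, as for 3.04% of all genes. DESeq2 called Dusp1, Dusp5 and Spry4 lower, beside 3.10% of all genes. Without fl/fl IRI 1, edgeR called Dusp1, Dusp5, Dusp14, Spry2 and Spry4 lower, beside 6.60% of all genes, so the larger member count went with a larger count over all genes. With only the 2 injured groups in the fit, no gene at all was called, members included (Dusp5 adjusted p = 0.317).

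The test of whether the response to IRI itself differed by genotype gave a median of -0.68 over the members, beside -0.02 over all genes, and 8 of the 9 estimates were negative. Dusp10 was the exception at 0.33 ± 0.81. No member was called by edgeR, which called 0% of all genes (2033 genes had an unadjusted p under 0.05). DESeq2 called 112 genes, of which Dusp5 was the only member (adjusted p = 0.0206), and it called 0.470% of all genes more negative. With fl/fl IRI 1 left out, edgeR also called Dusp5 alone among the members, and 2.15% of all genes more negative. Of the 16 fits with 1 library left out, that was the only 1 in which Dusp5 was called. Comparisons that share a group are not independent: the fl/fl IRI libraries enter the fl/fl response, the difference between the injured groups and the interaction alike.

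Summed markers of tubule, neutrophils and macrophages are given for each group, without a test between groups. The 5 injured tubule markers summed to 21.5 to 61.4 CPM in sham-operated fl/fl and 47.0 to 202 CPM in sham-operated iGKO mice. Their sums were 205 to 2705 CPM in injured fl/fl and 118 to 200.1 CPM in injured iGKO mice. The 202 CPM was that of iGKO sham 2. The 8 neutrophil markers summed to 5.45 to 12.1, 2.49 to 19.1, 25.1 to 225 and 10.9 to 36.5 CPM in the same order of groups, with Ly6g at 0 in all fl/fl sham libraries. The 7 macrophage markers had sums of 95.5 to 139.69, 97.1 to 134, 65.2 to 282 and 154 to 300.45 CPM, again in that order. The 282 CPM was that of fl/fl IRI 1, and fl/fl IRI 2, 3 and 4 stood at 101, 117 and 65.2 CPM, none above the sham range. Sums of the 6 proximal tubule markers after IRI were 3183 to 12418 CPM in fl/fl, the highest in replicate 1, and 10291 to 13397 CPM in iGKO. The part of these markers in the members' values was not tested, and in bulk tissue fewer cells of a type and less RNA per cell cannot be told apart.

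Other genes were taken from 4 lists, called pathway lists here. The list of phosphatases was drawn from other dual-specificity phosphatases, and whether each of them acts on MAP kinases was not tested. Of the 12 tested, 3 rose and 1 fell after IRI in fl/fl. Of all genes tested, 8.46% were called higher and 7.01% lower in this comparison. Dusp8, a phosphatase of JNK and p38, rose from 6.67 ± 1.14 to 39.2 ± 21.5 CPM (SD, n = 4; log2 fold change 2.55, adjusted p = 0.000871). Dusp2, the nuclear phosphatase of activated lymphoid and myeloid cells, rose by 2.05 and Dusp16 by 0.62 on the log2 scale, whereas Dusp15 had a log2 fold change of -2.38. Dusp8 was also the 1 gene of this list called lower in iGKO than in fl/fl after IRI (-1.63, adjusted p = 0.0439). In that comparison 0.673% of all genes were called lower and 0.178% higher.

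Of 19 other inhibitors of receptor and RAS signalling tested, 4 rose and 1 fell after IRI in fl/fl, beside 8.46% and 7.01% of all genes. Socs3, an inhibitor of cytokine receptor signalling, rose by 3.34, and the Sprouty-related genes Spred3 and Spred1 rose by 1.93 and 0.71 on the log2 scale. Cbl, a ubiquitin ligase for activated receptors, rose by 0.40, and Lrig3 fell by 0.52. Spred3 was called lower in iGKO after IRI (-1.44, adjusted p = 0.0426), beside 0.673% of all genes.

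In the MAP kinase cascade itself 9 of 33 genes rose and 1 fell after IRI in fl/fl, beside 8.46% and 7.01% of all genes. Map3k1, a kinase at the head of the JNK branch, rose by 0.99, Nras by 1.12 and Mapkapk2, a substrate kinase of p38, by 1.09 on the log2 scale, while Map2k6, a p38 activator, had a log2 fold change of -1.18. Map3k1 (-0.64, adjusted p = 0.0471) and Nras (-0.89, adjusted p = 0.0479) were called lower in iGKO after IRI, beside 0.673% of all genes.

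Of 14 transcriptional readout genes of ERK, 7 rose and 1 fell after IRI in fl/fl, beside 8.46% and 7.01% of all genes. The list's median log2 fold change, 1.51, exceeded that of the members. The 4 genes of smallest p all rose, Myc by 3.02, Egr1 by 3.02, Egr2 by 3.49 and the receptor gene Epha2 by 2.34 on the log2 scale. The list was not uniform: 10 of the 14 estimates were positive, and the lowest was -0.89. Epha2 was called lower in iGKO after IRI (-1.75, adjusted p = 0.0398), beside 0.673% of all genes. Myc at -1.58 was just outside the threshold (adjusted p = 0.0507). The calls between the injured groups in the 4 lists are limited, as is that of Dusp5. No gene was called in this comparison with only these 2 groups fitted, with the replicate block, or in 6 of 16 fits with 1 library left out. Those 6 fits are the fewest in which a call was lost, and the Dusp5 call held in only 3 of the 16. In the order of the lists, the number of genes called stayed at or near its main value in 1, 1, 2 and 5 of 22 alternatives. In iGKO no gene of the 4 lists was called after IRI, and none was called between the sham groups or for the interaction. In each of these comparisons edgeR called 0% of all genes, so the lists do not differ from the rest there. The median log2 fold changes in iGKO were -0.06 for the phosphatases, -0.02 for the inhibitors, -0.05 for the cascade and 0.36 for the readout genes.

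**Figure D3:**
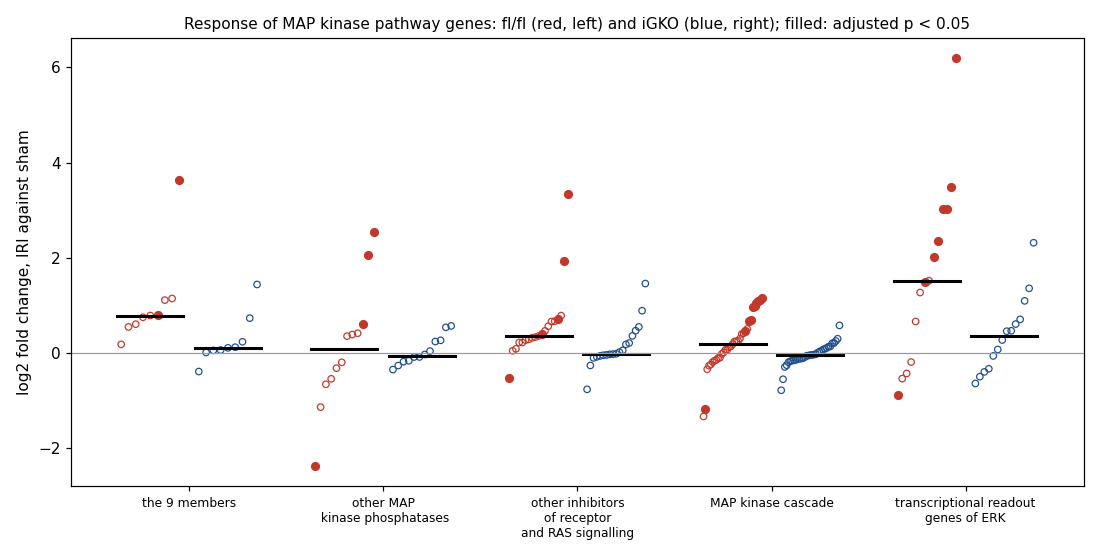
Log2 fold change after IRI of each tested gene of the 9-member set and the 4 pathway lists, in fl/fl (red, left) and iGKO (blue, right). Filled points passed an adjusted p of 0.05 and bars are list medians, which are 0.79 for the members and 1.51 for the ERK readout genes in fl/fl; no point is filled in iGKO.

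The members varied together across the 16 libraries to unequal degrees, described by Pearson's r of log2 CPM, with the r after subtraction of group means as the centred value. These libraries share groups and scaling, so the values are descriptive. Of the 36 pairs of members 35 had a positive r (28 centred) and the median was 0.443 (0.242 centred). The same summary was not made for pairs of other genes. The closest pair was Dusp5 and Spry4, at 0.911 (0.781 centred), followed by Dusp5 and Spry2 at 0.811 (0.736 centred). Dusp10 and Spry1 were the 1 pair with a negative r, at -0.0682. Dusp1 and Dusp14 had an r of 0.101 and a centred value of -0.417, and fl/fl IRI 4 was the highest of its group for Dusp1 and the lowest for Dusp14. With Havcr1, the tubular injury marker KIM-1, r was 0.88 for Dusp5 (0.564 centred), 0.76 for Spry2 (0.693 centred), 0.726 for Spry4 (0.259 centred) and 0.221 for Spry1 (0.379 centred). It was 0.644 for Dusp6 (0.175 centred), 0.581 for Dusp14 (0.518 centred) and 0.506 for Dusp1 (0.0935 centred). Dusp10 had 0.43 (0.0704 centred) and Dusp4 0.396 (-0.175 centred).

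Among 13056 protein-coding genes with a mean of at least 1 CPM, those most like each member across the 16 libraries were sought by the same measure. For Dusp5 they were Mthfd1l (r = 0.974), Akap12 (r = 0.973) and Pvr (r = 0.970), and Akap12 kept a centred value of 0.967. For Dusp1 they were Rasd1 (r = 0.925), Kcne4 (r = 0.922) and Itprip (r = 0.916). Spry4 was most like Trib1 (r = 0.949), Bzw2 (r = 0.948) and Rac1 (r = 0.943), and Spry2 most like Pde4b (r = 0.943), Zfp948 (r = 0.939) and F3 (r = 0.929). The closest gene reached 0.910 for Dusp6 (Ncs1), 0.898 for Dusp4 (Fam110c), 0.860 for Dusp14 (Pak1), 0.853 for Dusp10 (Ppp1r3b) and 0.803 for Spry1 (Ext2).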

How the data were processed

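The deposited values were raw counts, whole numbers of reads per Ensembl gene, with no normalization by the authors, for 56980 genes in 16 libraries of 1 batch label. Per the submitters' processing notes the tools were FastQC, Picard, MultiQC, cutadapt 1.16, DESeq2 1.36.0, featureCounts 1.6.3 and STAR 2.7.9a, with genome build GRCm39 (mm39). Their roles, the annotation release and the strand setting are not given in the sources used here. Per the labels, stranded libraries were prepared from RNA depleted of ribosomal RNA.

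Symbols (52073 genes), gene types and exon lengths came from a GENCODE annotation of build GRCm38, matched by identifier, so no gene coordinates are given in the files' build. Genes were kept by edgeR's filterByExpr, which left 17972 genes, scaled by TMM and tested in edgeR 4.0.16 (R 4.3.3) with 1 coefficient per group over all 16 libraries. The 5 contrasts were IRI against sham in each genotype, iGKO against fl/fl after each operation, and the interaction, the iGKO response minus the fl/fl response. Tests were two-sided, with Benjamini-Hochberg adjustment over all genes tested and a threshold of 0.05. The script was tested on simulated data.

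The 9 genes, the 4 pathway lists, the marker lists and the alternatives were chosen with earlier results of these data known. Named were all 9 members, Degs1, from each list up to 4 genes with the smallest p in a comparison, and for each member the 3 genes most like it; Cbl and Ly6g were named after their values were seen. Alternatives were DESeq2 1.42.0, RLE size factors, no filter on low counts, the replicate number as a block, fits of the compared groups alone, and leaving out libraries. No 2 libraries of a group agreed within sampling noise.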

Additional observations from a re-analysis of the deposited data

Results flagged for a closer look

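In 3 of 36 sets of 4 libraries (9 genes in 4 groups) 1 library lay far from the other 3 by Dixon's criterion, which chance meets in about 1 of 20 sets. Dusp1 was at 59.3 CPM in fl/fl sham 3, where the other fl/fl sham libraries were at 30.6 to 34.8 CPM. Dusp4 was at 33.4 CPM in iGKO sham 4, where the other iGKO sham libraries were at 15.9 to 18.8 CPM. Spry1 was at 21.7 CPM in fl/fl IRI 1, where the other fl/fl IRI libraries were at 34.9 to 37.3 CPM.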

How the results depend on the processing

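The number of members called after IRI in fl/fl was 2 (15.5% of all genes called), and it was 5 with DESeq2 (20.6%), 6 without fl/fl IRI 1 and iGKO sham 4 (30.2%), 1 with the 2 fl/fl groups fitted alone (9.03%), and 1 to 5 with single libraries left out. Between the injured groups it was 1 (0.851% of all genes), and it was 3 with DESeq2 (5.46%), 5 without that pair of libraries (20.9%), 0 with the 2 groups alone, where no gene was called, and 0 to 5 with single libraries left out. For the interaction it was 0, with no gene called, and 1 with DESeq2 (0.65%), 2 without the pair of libraries (8.16%), and 0 to 1 with single libraries left out. With the replicate block the counts were 2 in fl/fl and 0 between the injured groups (Dusp5 adjusted p = 0.0758, Degs1 0.0544), where no gene was called. The cause of these changes was not tested. The labels do not say whether replicate numbers pair the samples, and the main fit took the samples as unpaired. Same-numbered libraries correlated at -0.241 to 0.399 in their deviations from group means, and no comparison had every value over 0.1. Such correlations cannot exclude pairing. In the iGKO response and between sham groups the member count was 0 under every alternative. Called list genes ranged, over all alternatives and in the order phosphatases, inhibitors, cascade and readout genes, over 2 to 8, 3 to 11, 5 to 14 and 8 to 10 in fl/fl, 0 to 6, 0 to 11, 0 to 12 and 0 to 10 between the injured groups, and 0 to 5, 0 to 3, 0 to 4 and 0 to 5 for the interaction. Estimates near 0 that did not pass changed sign. Without fl/fl IRI 1 and iGKO sham 4 the iGKO response of Spry2 was -0.011 and the sham difference of Spry4 was 0.0020. With single libraries left out, the iGKO response ranged from -0.10 to 0.22 for Dusp1, -0.11 to 0.41 for Dusp4, -0.040 to 0.16 for Dusp14, -0.078 to 0.10 for Spry2 and -0.18 to 0.063 for Degs1. The sham difference ranged from -0.47 to 0.072 for Dusp4, -0.22 to 0.064 for Dusp6, -0.044 to 0.19 for Spry2 and -0.10 to 0.068 for Spry4. Dusp10 ranged from -0.96 to 0.52 between the injured groups and from -0.51 to 0.97 for the interaction. Dusp10 had the fewest reads of the members.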
